A study of Mus musculus with 6 samples.

Results

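The genes described here make, feed or compete with nitric oxide synthesis from arginine. They are Nos2, Gch1, Slc7a2, Ass1, Asl, Arg1, Arg2 and Odc1, 8 of the 55453 gene symbols in a count table of bone marrow-derived macrophages (BMDM). They were taken from the table by symbol, and all 8 passed the filter on low counts that left 13680 genes for testing. RNA-Seq of poly(A) RNA was compared between 3 PP2Ac-KO libraries and 3 PP2Ac-WT libraries, all on a C57BL/6 background. PP2Ac-KO BMDM came from LysM-cre PP2Ac fl/fl mice, in which cre from the Lyz2 (LysM) promoter removes exon 1 of Ppp2ca, the gene of the catalytic subunit of protein phosphatase 2A, in myeloid cells. PP2Ac-WT BMDM came from purchased WT mice and not from cre-negative or unfloxed littermates, so that the floxed allele, the cre and the source of the mice moved with the genotype and cannot be told apart. The study used young adult mice of both sexes and describes both genotypes as treated with cGAMP, the cyclic dinucleotide that activates STING, while the labels name no treatment. There were no untreated libraries among those used here. Nothing in the labels says whether replicates 1, 2 and 3 came from separate mice. The study describes its cell-based experiments in general as done in biological triplicate, without saying whether these were separate mice. The p-values therefore measure only the spread between these libraries, which may be technical.

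Inducible nitric oxide synthase (Nos2) turns arginine into nitric oxide and citrulline, and it works only with the cofactor tetrahydrobiopterin (BH4), whose synthesis begins with GTP cyclohydrolase 1 (Gch1). Arginine enters macrophages through cationic transporters such as Slc7a2, and citrulline is turned back into arginine by argininosuccinate synthase (Ass1) and argininosuccinate lyase (Asl). Arginases (the cytosolic Arg1 and the mitochondrial Arg2) split the same arginine into urea and ornithine, from which ornithine decarboxylase (Odc1) makes putrescine, the parent of the polyamines. In mouse macrophages Nos2 is a standard marker of activation by interferons and microbial products, and Arg1 of activation by IL-4 and IL-13.

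Of the 8 genes, 4 were higher in PP2Ac-KO BMDM at an adjusted p-value under 0.05 (Nos2, Gch1, Ass1 and Odc1) and 0 were lower, beside 18.1% of all genes tested that were higher and 19% that were lower (edgeR's quasi-likelihood test). At an unadjusted p under 0.05 the members lower also numbered 0, as they did with DESeq2 and limma-voom at an adjusted p under 0.05. Nos2 and Gch1 also passed a log2 fold change over 1 with an adjusted p under 0.01, which 3.36% of all genes did. The libraries of the genotypes did not overlap for the same 4 genes, with PP2Ac-KO above, as for 24% of all genes. For 0 of the 8 was every PP2Ac-KO library below every PP2Ac-WT library, which held for 26.8% of all genes. In a fit that took the replicate number as a block (the blocked fit), 4 members were higher and 2, Arg2 and Slc7a2, were lower, beside 24.4% and 26.4% of all genes (3343 higher and 3615 lower), so that the 2 members lower were no larger a share than among all genes. These shares depended on the scaling of the libraries, since library totals with no scaling factor gave 1503 genes higher and 6125 lower in place of 2470 and 2604 (11% and 44.8% of all genes), and shifted the median of all log2 fold changes from -0.02 to -0.24. The same 4 members were higher under that scaling, where Arg2, Asl and Slc7a2 were lower.

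**Figure D1:**
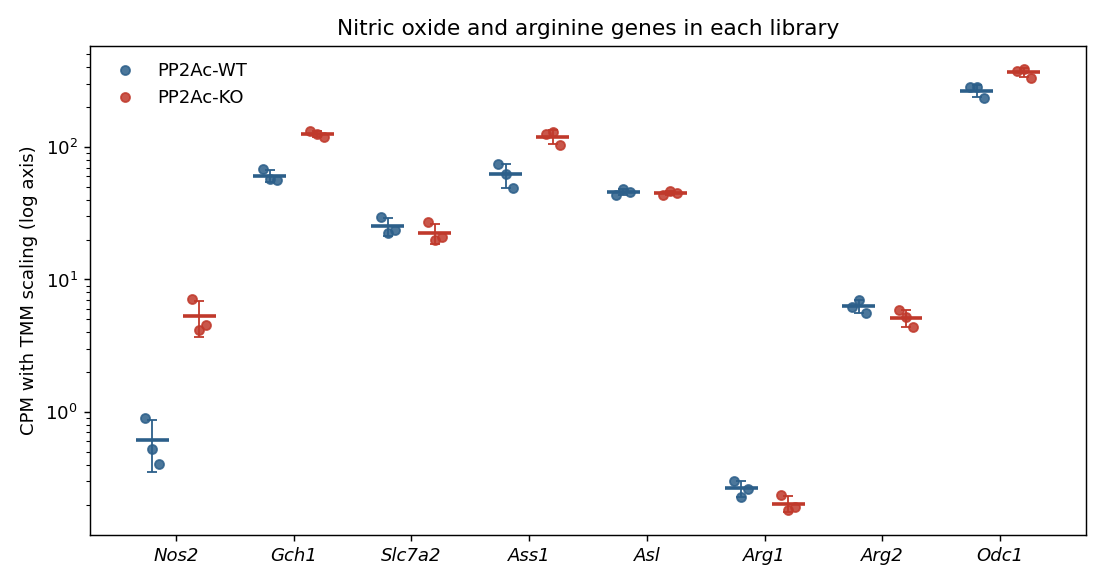
Level (CPM, counts relative to the library size with TMM scaling, log axis) of the 8 genes in each library, with PP2Ac-WT in blue and PP2Ac-KO in red. Points are libraries, thick bars the means and thin bars the SD of 3 libraries; the groups stand apart for Nos2, Gch1, Ass1 and Odc1 and overlap for Slc7a2, Asl, Arg1 and Arg2.

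The libraries held 35257156 to 47390899 counts, and TMM factors were 0.910 to 0.937 in PP2Ac-KO and 1.05 to 1.10 in PP2Ac-WT. Ppp2ca had 33 to 47 counts in PP2Ac-KO and 8279 to 10654 in PP2Ac-WT, with its paralog Ppp2cb at a log2 fold change of 0.03 (adjusted p = 0.731 from edgeR), which turned negative with upper-quartile scaling (-0.037, adjusted p = 0.630) and passed as lower with library totals (-0.19, adjusted p = 0.0206 from edgeR). The macrophage markers Csf1r, Adgre1 and Cd68 had mean levels of 1250 to 3405 CPM in both groups. Lyz2, whose promoter drives the cre, had 260 to 421 counts. Whether Lyz2 shares sequence with other genes was not tested, so its counts may not give its level or the activity of its promoter. Of 9 macrophage markers 3 were higher in PP2Ac-KO (Fcgr1, Mertk and Spi1), or 6 in the blocked fit, beside 18.1% and 24.4% of all genes. The summed levels of the markers were 9015 to 9132 CPM in PP2Ac-KO and 7600 to 8125 CPM in PP2Ac-WT. All 6 fibroblast markers tested were lower in PP2Ac-KO, beside 19% of all genes tested. Fibroblast markers had a summed level of 24.9 to 37.4 CPM in PP2Ac-KO against 80.8 to 124.9 CPM in PP2Ac-WT, and Lum had 0 to 6 counts. Of the endothelial markers tested, Cdh5 and Kdr were higher and Vwf was lower, with summed levels of 240.6 to 312.0 CPM in PP2Ac-KO and 163.7 to 226.4 CPM in PP2Ac-WT, and Tek had 0 to 4 counts. Markers of T and NK cells summed to at most 0.212 CPM in any library, and those of neutrophils, B cells, dendritic cells or basophils and mast cells to at most 2.66 CPM, of which only Clec9a, a dendritic cell marker, passed the test, with a higher level in PP2Ac-KO. The part of these other markers in the results was not tested, and in bulk RNA fewer cells of a type and less RNA per cell cannot be told apart.

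Promoter windows of 300 bases, from 250 before to 50 after the start of transcription, were found in the RefSeq table for 3 of the 8 genes (build GRCm38.p6). These are Ass1, Gch1 and Odc1, and not shown are Nos2, Arg1, Arg2, Asl and Slc7a2. All 3 windows found are shown, and the 3 genes happen to be among the 4 that were higher in PP2Ac-KO. Capitals mark matches to the motifs searched. The window of Ass1 is chr2:31470020-31470319 on the forward strand, that of Gch1 is chr14:47189364-47189663 on the reverse strand, and that of Odc1 is chr12:17544623-17544922 on the forward strand. The RefSeq starts of Ass1 and Odc1 lie inside the genes as GENCODE draws them.
Ass1: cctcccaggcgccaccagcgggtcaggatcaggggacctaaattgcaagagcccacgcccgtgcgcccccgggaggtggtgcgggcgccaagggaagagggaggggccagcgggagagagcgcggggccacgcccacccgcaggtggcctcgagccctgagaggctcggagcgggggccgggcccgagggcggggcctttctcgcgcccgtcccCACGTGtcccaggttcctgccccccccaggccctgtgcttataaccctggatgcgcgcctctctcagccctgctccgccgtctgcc
Gch1: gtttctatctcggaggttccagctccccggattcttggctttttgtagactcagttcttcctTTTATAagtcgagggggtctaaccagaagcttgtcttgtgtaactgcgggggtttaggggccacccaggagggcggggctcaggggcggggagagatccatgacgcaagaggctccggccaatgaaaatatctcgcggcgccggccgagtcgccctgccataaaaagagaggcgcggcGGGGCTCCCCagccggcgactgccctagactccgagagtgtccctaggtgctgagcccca
Odc1: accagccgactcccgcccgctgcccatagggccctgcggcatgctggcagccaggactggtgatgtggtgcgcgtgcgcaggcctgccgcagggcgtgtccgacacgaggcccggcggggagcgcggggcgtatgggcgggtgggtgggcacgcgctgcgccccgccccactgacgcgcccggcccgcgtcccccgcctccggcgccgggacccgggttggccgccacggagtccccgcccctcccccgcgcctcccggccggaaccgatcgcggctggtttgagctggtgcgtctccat

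The windows were rich in G and C, with 74% in Ass1, 60.3% in Gch1 and 78% in Odc1. Both strands were searched for the interferon-related GAS motif TTCNNNGAA and IRF half-site AANNGAAA, the NF-kB site, the E-box CACGTG, the CRE motif TGACGTCA, the AP-1 motif TGANTCA and the TATA box TATAAA, and no 2 matches overlapped in these windows. The window of Ass1 held 1 E-box at position -36 from the start, a motif found in 7.15% of the 32851 windows of the table. That of Gch1 held 1 match to the NF-kB site at position -10, GGGGCTCCCC, a motif found in 8.46% of windows. It also held a TATA box on the opposite strand at position -188, and this motif occurred in 13.6% of windows. The window of Odc1 held none of the 7 motifs. The other motifs, GAS, IRF half-site, CRE and AP-1, occurred in 8.30%, 23.9%, 1.79% and 7.81% of windows and in none of the 3 printed. A match here describes letters only.

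Nos2 showed the largest difference of the 8 genes. The gene lies on chromosome 11 from 78920787 to 78960254 on the forward strand (GRCm38), and its longest coding transcript has 27 exons. The counts were 302, 138 and 189 in PP2Ac-KO replicates 1, 2 and 3 and 45, 23 and 17 in PP2Ac-WT. Even the PP2Ac-KO library with the fewest Nos2 reads had more of them than any PP2Ac-WT library. As CPM, this was 7.12, 4.18 and 4.53 in PP2Ac-KO and 0.906, 0.529 and 0.406 in PP2Ac-WT, with means of 5.28 ± 1.61 and 0.613 ± 0.261 (SD, n = 3). The log2 fold change was 3.08 (standard error 0.30, 95% confidence interval 2.40 to 3.76, adjusted p = 1.37e-04 from edgeR), an 8.45-fold difference. Only 0.0365% of the genes tested had a higher log2 fold change. Within the replicate numbers the folds were 7.86, 7.90 and 11.2. The libraries of each genotype varied more in Nos2 than in any other member, with a coefficient of variation of 30.4% in PP2Ac-KO and 42.5% in PP2Ac-WT, and replicate 1 was the highest of its group in both. No 50-base window of the Nos2 transcripts occurred in another gene.

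Gch1, which makes the first intermediate of BH4, was at about 2-fold the PP2Ac-WT level. The gene is on chromosome 14 from 47153895 to 47189413 on the reverse strand, and its longest coding transcript has 6 exons. Its level was 131.8, 124.5 and 119.6 CPM in PP2Ac-KO and 67.8, 57.8 and 56.2 CPM in PP2Ac-WT. The groups were far apart relative to their spread, with means of 125.3 ± 6.17 and 60.6 ± 6.31 CPM (SD, n = 3). Its log2 fold change was 1.05 (standard error 0.08, 95% confidence interval 0.86 to 1.23, adjusted p = 6.16e-05 from edgeR), and the folds within replicate numbers were 1.94, 2.15 and 2.13. This was the most precisely measured of the 4 increases, with a coefficient of variation of 4.92% in PP2Ac-KO.

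The other genes of BH4 supply and the other synthases were compared in the same way. Of 9 such genes listed, 6 could be tested. By edgeR 0 were higher and 0 lower, beside 18.1% and 19% of all genes tested. Both numbers were also 0 at an unadjusted p under 0.05 and with DESeq2 and limma-voom. Spr and Qdpr, the reductases that finish and regenerate BH4, had log2 fold changes of -0.18 and -0.14 (adjusted p = 0.169 and 0.127 from edgeR). Both were lower in the blocked fit (adjusted p = 0.0237 and 0.0154 from edgeR), where 26.4% of all genes were lower. Upper-quartile scaling, or leaving out PP2Ac-WT replicate 1, each gave 1 gene of this list lower. Library totals with no scaling factor gave 2 lower, beside 44.8% of all genes. Pts, which acts right after Gch1, had 20.6 ± 1.09 CPM in PP2Ac-KO and 20.0 ± 1.10 in PP2Ac-WT (log2 fold change 0.05, adjusted p = 0.645 from edgeR). Gchfr, the feedback regulator of Gch1, had 0 to 4 counts, the endothelial synthase Nos3 had 0 to 3, and the neuronal synthase Nos1 had 13 to 26 with overlapping groups.

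Slc7a2, the inducible cationic amino acid transporter, did not pass the test. Located on chromosome 8, it spans 40862396 to 40922308 on the forward strand. Its level was 26.9, 19.8 and 20.8 CPM in PP2Ac-KO and 29.7, 22.4 and 23.7 CPM in PP2Ac-WT, so that the groups overlapped while each PP2Ac-KO library lay under the PP2Ac-WT library with its number. The log2 fold change was -0.16 (standard error 0.14, 95% confidence interval -0.47 to 0.14, adjusted p = 0.382 from edgeR). In the blocked fit it was -0.17 (standard error 0.05, adjusted p = 0.0169 from edgeR), a small decrease, with folds of 0.908, 0.884 and 0.880 within replicate numbers. A lincRNA gene on the opposite strand, Gm26584, covers 6.95% of the exon bases of Slc7a2 and had 0 to 3 counts.

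Ass1, which joins citrulline and aspartate, rose by nearly as much as Gch1. It lies on chromosome 2 from 31470207 to 31520672 on the forward strand, and its coding transcript has 16 exons. Its level was 126.4, 130.3 and 103.1 CPM in PP2Ac-KO and 74.3, 62.9 and 48.9 CPM in PP2Ac-WT, without overlap of the groups. The means were 119.9 ± 14.7 and 62.0 ± 12.7 CPM (SD, n = 3). The log2 fold change was 0.95 (standard error 0.14, 95% confidence interval 0.62 to 1.28, adjusted p = 9.81e-04 from edgeR), with folds of 1.70, 2.07 and 2.11 within replicate numbers. Of the 50-base windows of the Ass1 transcripts, 38.6% also occurred in Gm5424, which had only 16 to 37 counts. How reads were divided between these copies is not known, and Gm5424 itself had a log2 fold change of 0.87 (adjusted p = 0.0343 from edgeR).

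Asl, the next enzyme of the same citrulline cycle, did not pass the test. The gene occupies 130011258 to 130029247 of chromosome 5 on the reverse strand. Its level was 43.5, 46.6 and 44.6 CPM in PP2Ac-KO and 43.2, 48.1 and 45.8 CPM in PP2Ac-WT. The groups overlapped fully in a narrow range, at a log2 fold change of -0.03 (95% confidence interval -0.17 to 0.12, standard error 0.06, edgeR adjusted p = 0.778).

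Arg1, the arginase of alternatively activated macrophages, was barely detected. It is found on chromosome 10 from 24915221 to 24927484 on the reverse strand, and its coding transcript has 8 exons. Its counts were 10, 6 and 8 in PP2Ac-KO and 15, 10 and 11 in PP2Ac-WT. No difference was detected at this depth, at a log2 fold change of -0.37 (95% confidence interval -1.11 to 0.36, standard error 0.33, edgeR adjusted p = 0.440). The folds within replicate numbers were 0.781, 0.790 and 0.731, each below 1.

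Arg2, the mitochondrial arginase, was the arginase with the higher level in these cells. It lies on chromosome 12 from 79130777 to 79156301 on the forward strand. Its level was 5.89, 5.18 and 4.36 CPM in PP2Ac-KO and 6.24, 7.01 and 5.56 CPM in PP2Ac-WT, and the groups overlapped. The log2 fold change was -0.29 (standard error 0.14, 95% confidence interval -0.60 to 0.02, adjusted p = 0.135 from edgeR). In the blocked fit Arg2 was lower, at -0.28 (standard error 0.10, adjusted p = 0.0353 from edgeR). On the opposite strand, Vti1b covers 285 of its 1428 exon bases (19.96%). Vti1b had 1382 to 1971 counts against 171 to 310 for Arg2, with a log2 fold change of -0.03, so the value of Arg2 is uncertain if strand was not used in counting.

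Odc1, which takes ornithine into polyamine synthesis, showed the smallest of the 4 increases. It lies on chromosome 12 from 17544794 to 17551505 on the forward strand, and its coding transcript has 12 exons. Its level was 376.2, 386.9 and 333.8 CPM in PP2Ac-KO and 283.4, 284.3 and 232.7 CPM in PP2Ac-WT. The lowest PP2Ac-KO library lay above the highest PP2Ac-WT library, and the means were 365.6 ± 28.1 and 266.8 ± 29.5 CPM (SD, n = 3). Its log2 fold change was 0.45 (standard error 0.10, 95% confidence interval 0.24 to 0.67, adjusted p = 0.00520 from edgeR), or 1.37-fold. It fell to 0.24 with library totals and no scaling factor (adjusted p = 0.0410 from edgeR). Of its 50-base windows, 24.3% occurred in other genes, most in Gm7993, Gm17709 and Gm9115, which had at most 75 counts in any library.

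**Figure D2:**
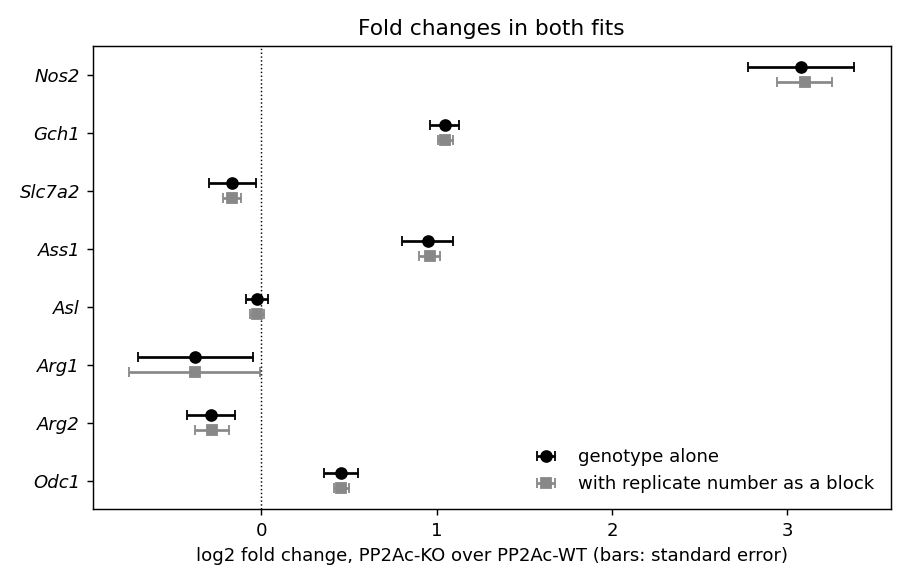
Log2 fold changes (PP2Ac-KO over PP2Ac-WT) of the 8 genes with standard errors, from the fit of genotype alone (black circles) and from the blocked fit (gray squares). Estimates hardly moved between the fits, Nos2 at 3.08 and 3.10 for example, and the block narrowed the error of every member but Arg1.

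Levels were set on a scale per length (RPKM, CPM per kilobase of exons) to compare the genes with each other. In PP2Ac-WT the order of mean levels was Odc1 (78.4 ± 8.66 RPKM), Ass1 (25.7 ± 5.26), Gch1 (9.69 ± 1.01), Asl (9.45 ± 0.503), Arg2 (4.39 ± 0.510), Slc7a2 (2.76 ± 0.426), Nos2 (0.139 ± 0.0591) and Arg1 (0.119 ± 0.0162), all as RPKM with the SD of 3 libraries. Gch1 and Asl overlapped in this order, as did Nos2 and Arg1, and both pairs changed places when the length of the longest transcript was used. In PP2Ac-KO the order was the same with no overlap of neighbors, but Arg2 and Slc7a2 overlapped when the length of the longest transcript was used. Per kilobase of exons, Odc1 had 107.4 ± 8.25 RPKM in PP2Ac-KO, Ass1 49.7 ± 6.08, Gch1 20.0 ± 0.987 and Asl 9.29 ± 0.324. Arg2 had 3.60 ± 0.537, Slc7a2 2.46 ± 0.424, Nos2 1.20 ± 0.364 and Arg1 0.0911 ± 0.0129 RPKM. Of the genes tested, 30.7% had a lower level than Nos2 in PP2Ac-KO and 6.22% in PP2Ac-WT. For comparison, Odc1 lay above 96.2% of the genes tested in PP2Ac-WT.

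**Figure D3:**
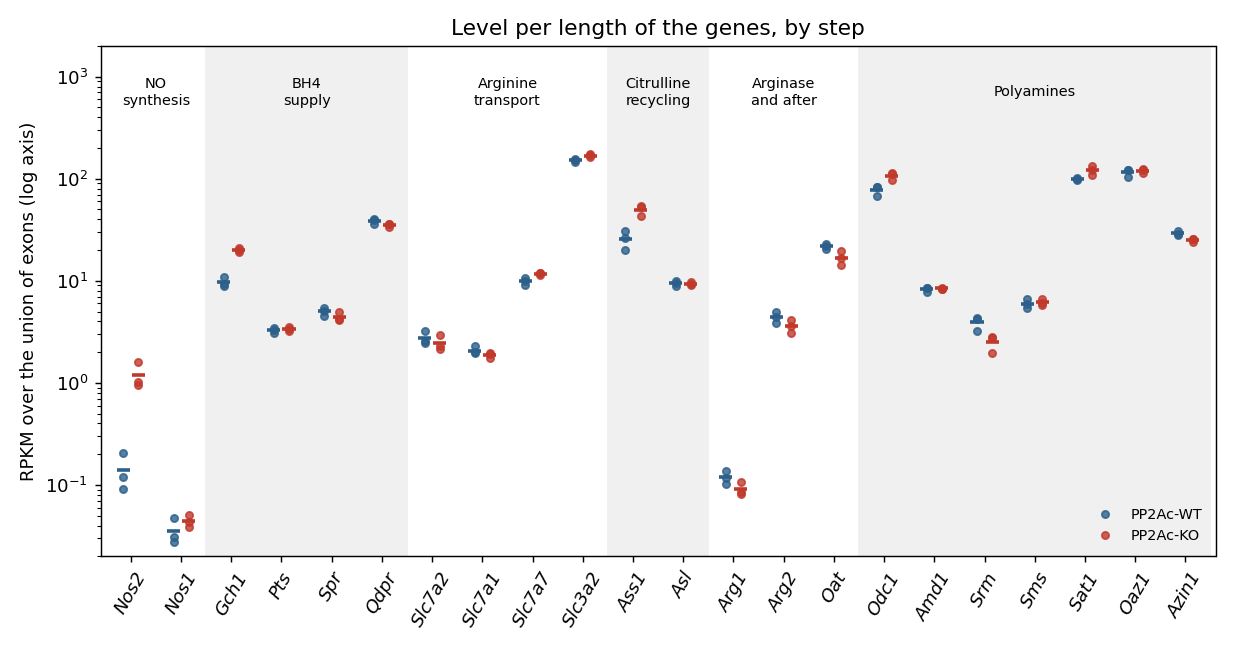
RPKM over the union of exons (log axis) of the 8 genes and their pathway neighbors, by step, with PP2Ac-WT in blue and PP2Ac-KO in red. Points are libraries and bars the means of 3; Nos2 in PP2Ac-KO lies near 1.20 RPKM, above Nos1 and below the 4 genes of BH4 supply plotted, while Arg1 stays near 0.1 RPKM in both groups.

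Pairs of members were also compared by ratios of their levels per length within a library. The Nos2 to Arg1 ratio was 15.3, 11.6 and 11.9 in PP2Ac-KO and 1.51, 1.16 and 0.780 in PP2Ac-WT. The groups did not overlap, and the mean log2 ratio differed by 3.53. Most of this was Nos2, with a log2 fold change of 3.08 by itself. Arg1 had only 6 to 15 counts in a library and did not pass the test, and it was the arginase with the lower level. A two-sided exact permutation test gave p = 0.1, the smallest p that 3 libraries against 3 allow, and the paired exact test gave p = 0.25, also the smallest. Further ratios were chosen after the values of the genes were seen. The Nos2 to Arg2 ratio was 0.391, 0.261 and 0.336 in PP2Ac-KO and 0.0470, 0.0244 and 0.0236 in PP2Ac-WT, so that Nos2 stayed below Arg2 per length in every library. The Ass1 to Asl ratio was 5.82, 5.60 and 4.63 in PP2Ac-KO and 3.44, 2.62 and 2.14 in PP2Ac-WT, a log2 difference of 0.99 without overlap. The Nos2 to Gch1 ratio was 0.0765, 0.0476 and 0.0537 in PP2Ac-KO and 0.0189, 0.0130 and 0.0102 in PP2Ac-WT, a log2 difference of 2.09. Each of these 3 ratios also had an exact permutation p of 0.1. As the pairs were chosen with the values in view, this is no independent support. The ratios restate differences of single genes, and those that share Nos2 are not independent of each other. With 4 ratios compared at this floor, the Benjamini-Hochberg adjusted p was 0.1 for each.

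**Figure D4:**
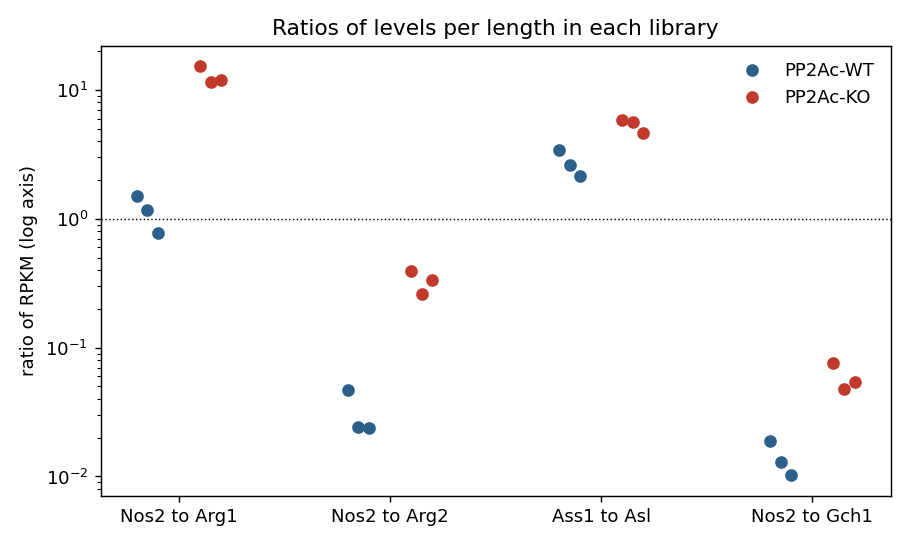
Ratios of RPKM (log axis) in each library for 4 gene pairs, with PP2Ac-WT in blue and PP2Ac-KO in red. Each point is a library and the dotted line marks equal levels. The groups are separate for all 4 pairs, which share genes and are not independent. The ratio of Nos2 to Arg1 runs from 0.780 to 1.51 in PP2Ac-WT and from 11.6 to 15.3 in PP2Ac-KO. Arg1 had only 6 to 15 counts in a library.

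Among 11 genes that dispose of nitric oxide, limit its synthesis or carry its signal, 7 could be tested. In PP2Ac-KO 1 was higher and 3 were lower, beside 18.1% and 19% of all genes tested. Ddah1 and Ddah2 break down methylated arginines, which inhibit the synthases. Ddah1 had 6, 4 and 1 counts in PP2Ac-KO and 29, 34 and 11 in PP2Ac-WT (log2 fold change -2.50, standard error 0.58, adjusted p = 0.00830 from edgeR). Ddah2 averaged 2.64 ± 0.231 CPM in PP2Ac-KO against 3.91 ± 0.326 CPM in PP2Ac-WT (SD, n = 3), and its log2 fold change was -0.57 (adjusted p = 0.00809 from edgeR). Cyb5r3, a cytochrome b5 reductase, was lower by a smaller amount, -0.31 on the log2 scale (adjusted p = 0.00328 from edgeR). Prkg1, the cGMP-dependent kinase downstream of nitric oxide, was higher at 0.75 (adjusted p = 0.00250 from edgeR). The subunits of its upstream partner, soluble guanylate cyclase, had few reads. Gucy1a1 and Gucy1b1 had at most 15 counts in a library and Gucy1a2 had 0 in every library. The median log2 fold change of the 7 genes was -0.20, against -0.02 for all genes tested.

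Of 12 listed transporters of cationic and related amino acids, 10 could be tested, with a median log2 fold change of 0.04. By edgeR 3 were higher and 2 lower, beside 18.1% and 19% of all genes tested. Slc7a8 and Slc7a5, light chains that carry large neutral amino acids, had log2 fold changes of 0.65 and 0.59 (adjusted p = 0.00101 and 0.00232 from edgeR). Slc7a7, a light chain that exports arginine, had 0.23 (adjusted p = 0.0286 from edgeR), which missed the threshold with upper-quartile scaling (adjusted p = 0.0776) and without PP2Ac-KO replicate 1 or 2 or PP2Ac-WT replicate 2 or 3 (adjusted p = 0.0747 to 0.0978 from edgeR). Slc7a6, another light chain of arginine exchange, and Slc25a15, the mitochondrial ornithine carrier, were lower at -0.49 and -0.54 (adjusted p = 0.00656 and 0.00392 from edgeR). Slc7a1, the constitutive arginine transporter, had 21.7 ± 1.27 CPM in PP2Ac-KO and 23.9 ± 2.07 in PP2Ac-WT (log2 fold change -0.14, adjusted p = 0.203 from edgeR).

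For the urea cycle and the other uses of arginine and ornithine, 9 of 14 genes could be tested. By edgeR 0 were higher and 4 were lower, beside 18.1% and 19% of all genes tested. The median log2 fold change of the 9 was -0.34. At an unadjusted p under 0.05 the genes higher numbered 0 as well, as they did with DESeq2 and limma-voom. The 4 were Aldh18a1 at -0.40, Oat at -0.37, Aldh4a1 at -0.37 and Azin2 at -0.35 (adjusted p = 0.0122, 0.0171, 0.0465 and 0.0309 from edgeR). Azin2 encodes an inhibitor of antizyme and not an enzyme of arginine or ornithine use, but was counted in this list. Aldh18a1 makes the precursor of proline and ornithine from glutamate, and Oat converts ornithine to the same intermediate. Oat had 1444, 1308 and 1917 counts in PP2Ac-KO and 2428, 2265 and 2271 in PP2Ac-WT, so its groups did not overlap. None of the 4 passed without PP2Ac-KO replicate 2 or without PP2Ac-WT replicate 2, and 2 passed without PP2Ac-KO replicate 1 or without PP2Ac-WT replicate 3. In the blocked fit 6 were lower, beside 26.4% of all genes. Otc, Cps1 and Agmat, which define the hepatic urea cycle and agmatine breakdown, had 0 counts in every library.

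Around Odc1, 15 of 16 further polyamine genes could be tested, with a median log2 fold change of 0.03. By edgeR 2 were higher and 3 lower, beside 18.1% and 19% of all genes tested, so the list was not enriched in either direction. Smox, the spermine oxidase, had 216.5 ± 32.3 CPM in PP2Ac-KO and 131.1 ± 20.8 in PP2Ac-WT (SD, n = 3), and its log2 fold change was 0.72 (adjusted p = 0.00294 from edgeR). Sat1, the acetyltransferase that starts polyamine breakdown, had 0.28 (adjusted p = 0.0196 from edgeR). Srm, the spermidine synthase that uses the product of Odc1, was lower at -0.65 (adjusted p = 0.0131 from edgeR), with 133, 144 and 187 counts in PP2Ac-KO and 257, 303 and 281 in PP2Ac-WT. Atp13a2, a lysosomal polyamine exporter, and Azin1, an inhibitor of antizyme, were lower at -0.35 and -0.22 (adjusted p = 0.0308 and 0.0258 from edgeR). Except for Smox these calls were sensitive to single libraries: without PP2Ac-WT replicate 2 the genes higher numbered 1 and the genes lower 0, without PP2Ac-KO replicate 2 each numbered 1, and without PP2Ac-KO replicate 3, or with upper-quartile scaling, the genes higher numbered 1. Atp13a2 also missed the threshold without PP2Ac-KO replicate 1 or PP2Ac-WT replicate 3, and Azin1 without PP2Ac-KO replicate 3. Sms and Amd1, the other enzymes of spermidine and spermine synthesis, had log2 fold changes of 0.05 and 0.03 and did not pass.

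All 12 listed activators of Nos2 transcription were higher in PP2Ac-KO, beside 18.1% of all genes tested. The median log2 fold change of the 12 was 0.65, against -0.02 for all genes tested. The largest increases of the list were in the cytokines Tnf, with 228.8 ± 26.4 CPM in PP2Ac-KO and 75.2 ± 9.70 in PP2Ac-WT, Il1b, with 80.9 ± 17.3 and 28.4 ± 9.85, and Ifnb1, with 15.9 ± 3.08 and 6.36 ± 2.30 (SD, n = 3). Their log2 fold changes were 1.61, 1.51 and 1.32 (adjusted p = 5.40e-05, 0.00149 and 0.00200 from edgeR). The list was written with earlier results on interferon and TNF genes of these libraries known, and is not independent evidence of its direction. With library totals and no scaling factor 9 of the 12 passed as higher, beside 11% of all genes.

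Of 11 listed activators of Arg1 transcription, 5 were higher and 2 were lower, beside 18.1% and 19% of all genes tested. The median log2 fold change of the 11 was 0.21. Il13ra1, a chain of the receptor for IL-13 and IL-4, had 1.14, Klf4 had 0.81 and Cebpb had 0.76 (adjusted p = 3.79e-04, 0.00784 and 3.16e-04 from edgeR). The nuclear receptor Ppard and the hypoxia factor Epas1 were lower at -0.66 and -0.49 (adjusted p = 5.99e-04 and 0.00251 from edgeR). In the blocked fit 7 of this list were higher and 4 were lower, beside 24.4% and 26.4% of all genes. Stat6, the factor that carries the IL-4 signal, had 258.0 ± 1.10 CPM in PP2Ac-KO and 238.8 ± 6.08 in PP2Ac-WT and did not pass (log2 fold change 0.11, adjusted p = 0.173 from edgeR), but passed as higher in the blocked fit (0.11, adjusted p = 0.0417 from edgeR).

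Alternative activation by IL-4 was described by further genes that accompany Arg1. Of 11 listed, 8 could be tested, with a median log2 fold change of 0.36. By edgeR 3 were higher and 0 were lower, beside 18.1% and 19% of all genes tested. The fit without a filter on low counts, the blocked fit, upper-quartile scaling, library totals or leaving out PP2Ac-WT replicate 1 each gave 1 lower. An unadjusted p under 0.05 also gave 1 lower, while DESeq2 and limma-voom gave 0. In the blocked fit 4 were higher, beside 24.4% of all genes. Chil3 had 36, 30 and 34 counts in PP2Ac-KO and 24, 7 and 11 in PP2Ac-WT (log2 fold change 1.46, adjusted p = 0.00891 from edgeR), and the lectin Clec10a had 9.24 ± 2.05 and 4.32 ± 1.17 CPM (1.09, adjusted p = 0.00359). Tgm2, a transglutaminase, had 0.40 (adjusted p = 0.0249 from edgeR), which missed the threshold without PP2Ac-KO replicate 1 or 2 or PP2Ac-WT replicate 3. The mannose receptor Mrc1 had 162.0 ± 18.8 CPM in PP2Ac-KO and 172.1 ± 29.2 in PP2Ac-WT, and did not pass. Retnla, like Arg1 a hallmark of the IL-4 response, had 0 or 1 count in every library.

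**Figure D5:**
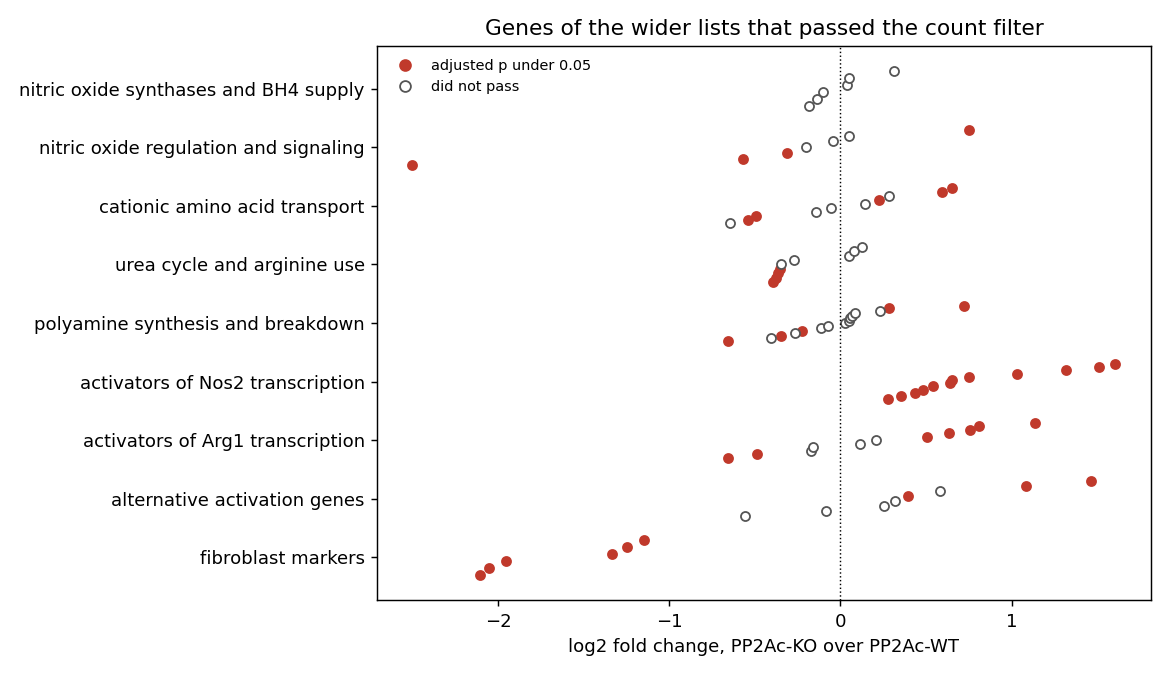
Log2 fold changes (PP2Ac-KO over PP2Ac-WT) of the genes in 8 wider lists and among fibroblast markers that passed the count filter. Each point is a gene, filled red where the adjusted p was under 0.05 and open where it was not. Of all genes tested, 18.1% were higher and 19% lower at that threshold. The 12 activators of Nos2 and the 6 fibroblast markers each lie on 1 side of 0, and the lists of metabolic genes lie on both.

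The genes whose log2 CPM was most like that of Nos2 over the 6 libraries were Rab1a, Mx2, Bcl6, Adck1 and Gm19684. Their Pearson correlations with Nos2 ran from 0.99896 to 0.99973. These points fall in the 2 genotypes, and 1471 genes had a correlation over 0.95 with Nos2. Their own log2 fold changes were 0.40, 0.60, 0.56, 0.38 and 1.34, smaller than that of Nos2. For Arg1, at 6 to 15 counts, the most alike were Ctif (0.999), Numa1 (0.989), Pou2f1 (0.985), Gas2l3 (0.985) and Sptan1 (0.985), and 80 genes had a correlation over 0.95.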

How the data were processed

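RNA-Seq counts of 3 PP2Ac-KO and 3 PP2Ac-WT BMDM libraries were analyzed. The authors deposited 1 table of unnormalized read counts per gene. The submitters' processing notes name fastp 0.20.0, kallisto 0.46.1, STAR 2.7.1a, HTSeq 0.11.2, edgeR 3.34.0 and limma 3.48.3 with mm10, without stating the role of each. The kit was directional, and the strand setting of the counting is not given in the sources used here.

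In R 4.3.3, edgeR 4.0.16 was used with filterByExpr (minimum count 10, minimum total 15), TMM, glmQLFit and glmQLFTest for genotype, with Benjamini-Hochberg adjustment over 13680 genes. CPM used TMM factors. RPKM used the union of GENCODE M21 exons (GRCm38), in which 98.4% of the symbols occur. Libraries of a group differed by more than counting noise (chi-square per degree of freedom 8.80 to 40.9). Totals of 35257156 to 47390899 limit genes of few counts, such as Arg1, and errors of counting alone were not printed. Both genotypes carry replicate numbers 1, 2 and 3 in the labels. Deviations from the group means correlated at 0.289, 0.148 and 0.337 between libraries of the same number. These libraries were treated as pairs in the blocked fit and the paired exact test, although no source says what the numbers share. The pairing was inferred from these same libraries. The main fit had no block, so its p-values leave the pairing out.

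Other settings were scaling by RLE or the upper quartile, no filter, a filter of 10 counts or more in each library, the replicate number as a block, DESeq2 1.42.0, limma-voom 3.58.1, each library left out and the length of the longest transcript. Scaling by library totals and 3 of the ratios were added after seeing the data. The genes and lists were chosen with earlier results of these data known. Named were all 8 genes, the 3 largest increases and decreases at an adjusted p under 0.05 on each wider list, Ppp2ca and Ppp2cb, and the 5 genes most correlated with Nos2 and with Arg1. Azin2 and the other genes of the lists that are named with values were chosen after their values were seen. Fits were tested on simulated data.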

Additional observations from a re-analysis of the deposited data

How the results depend on the processing

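The log2 fold changes of Nos2 (2.79 to 3.49), Gch1 (0.83 to 1.14), Ass1 (0.74 to 1.10) and Odc1 (0.24 to 0.52) stayed positive and past an adjusted p of 0.05 in all alternatives. The members lower numbered 2 with the replicate block and 3 with library totals and no scaling factor, and 0 in every other setting. Over all genes the block gave 3343 higher and 3615 lower. The block ended or made no other call among the 8 genes. Library totals gave 1503 genes higher and 6125 lower, or 294 and 746 at the stricter thresholds. They also gave 5 genes of nitric oxide regulation and 7 polyamine genes lower, and ended the calls of Slc7a7, Sat1 and Tgm2, while RLE scaling ended that of Aldh4a1 (adjusted p = 0.0511 from edgeR). The log2 fold change of Asl ran from -0.064 to 0.014 with single libraries left out, turning positive without PP2Ac-WT replicate 2. That of Ppp2cb was -0.037 with upper-quartile scaling and -0.19 with library totals (adjusted p = 0.0206 from edgeR), a call of lower. The cause of these shifts was not tested. The log2 difference in the Nos2 to Arg1 ratio was 3.27 to 3.75 with single libraries left out. The length of the longest transcript moved the levels per length of Arg1, Ass1, Asl, Gch1 and Odc1 by more than the SD, and that of Slc7a2 in PP2Ac-WT. Arg1 had no value with 10 counts required in every library. Depth limits Arg1, whose 95% confidence interval (-1.11 to 0.36) takes in both a fall and a rise. A group with a library left out has 2 libraries.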
